A study of Mus musculus with 8 samples.

Results

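A genotype by tissue interaction asks, for each probe, whether the difference between colon tumor and normal colon was the same in caspase-12 deficient mice as in wild-type mice. It was computed as deficient tumor minus deficient normal colon, minus the same difference in wild-type mice, and it drew on all 8 of the 8 arrays of the series. A positive interaction means that the tumor difference was more positive in deficient mice, and a negative one that it was more negative there. The 4 groups, with 2 arrays each, were tumors from C57BL/6 mice labelled caspase-12 deficient, normal colon from mice of that genotype, tumors from wild-type C57BL/6 mice, and normal colon from wild-type mice. Total RNA was labelled with Cy3 and hybridized to Illumina MouseRef-8 v2 arrays, on which each probe is carried by beads and read as a fluorescence intensity. How the deficiency was made, how the tumors arose, whether animals were pooled and where along the colon tissue was taken are not stated in the labels. No label says that the 2 arrays of a group came from separate animals, so the p-values reflect the spread among these samples alone, possibly a technical one.

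Caspase-12 belongs to the inflammatory caspases, a group that also holds caspase-1, the enzyme that matures the cytokines interleukin-1 beta and interleukin-18. In mice caspase-12 has been described as a brake on caspase-1 and on signalling by NOD receptors. In an inflamed or transformed colon, neutrophils and their chemoattractants typically accumulate, while the absorptive surface cells lose transporters, digestive enzymes and the enzymes that process bile acids, drugs and dietary compounds.

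Levels are normalized log2 intensities, so that a difference of 1 is a 2-fold change, and a detection p-value under 0.01 on an array marked a probe as above background there. Of 25697 probes, 13327 were above background on at least 2 of the 8 arrays and were tested with limma. A probe passed when its p, adjusted over all probes tested by the Benjamini-Hochberg method, was under 0.05. The mean intensity per array ranged from 1112.5 to 1181.52, and between 43.7% and 49.1% of the probes were above background. Over the tested probes, the 2 arrays of a group correlated at 0.938 in deficient tumors, 0.976 in deficient normal colon, and those of wild-type mice at 0.945 for tumors and 0.976 for normal colon. The second wild-type tumor array stood apart from its partner: its correlations with wild-type normal colon were 0.972 and 0.973, whereas those of the first wild-type tumor array were 0.927 and 0.922. Gene list counts are therefore also given without it, and genes named by rule that did not pass without it are identified. Other genes, named as examples of a list, were followed through the list counts alone. Genes that did not pass without 1 of the other arrays are not marked singly. Among those arrays are the deficient normal ones, on which the total depended most. A gene without a mark is therefore not thereby stable.

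The labelled tissue was checked against marker genes. Genes of colon epithelium were above background in every group, for 9 of 10 tested markers in deficient tumors and 10 of 10 in each other group. Relative to the wild-type normal mean they averaged -2.26 and -1.74 log2 units in deficient tumors, -0.30 and -0.39 in deficient normal colon, with -0.50 and -0.28 in wild-type tumors. Genes of skeletal muscle averaged 6.69 on the first deficient tumor array, 0.27 on the second, and 2.64 and 0.34 on the wild-type tumor arrays. Genes of squamous epithelium, the layered epithelium of skin and anus, averaged 3.84 and 5.64 in deficient tumors, and 3.46 and -0.28 in wild-type tumors. In deficient normal colon both skeletal muscle and squamous genes lay between -0.40 and 0.35. Other tissue markers were raised there: adipocyte genes averaged 0.98 and 2.21, genes of enteric neurons and glia 0.99 and 1.30, and smooth muscle genes 0.70 and 0.87. In deficient tumors adipocyte genes averaged 0.46 and -0.72, neuron and glia genes -1.93 and -0.08, and smooth muscle genes -1.03 and 0.10. In wild-type tumors adipocyte genes averaged -0.56 and -0.56, neuron and glia genes 0.15 and -0.20, and smooth muscle genes 0.86 and 0.81. Markers of tissue other than colon mucosa thus differed between groups and between the 2 arrays of a tumor group, and their part in the interactions below was not tested, apart from leaving out each array. With whole tissue on the arrays, fewer cells of a type and less RNA per cell cannot be told apart.

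**Figure D1:**
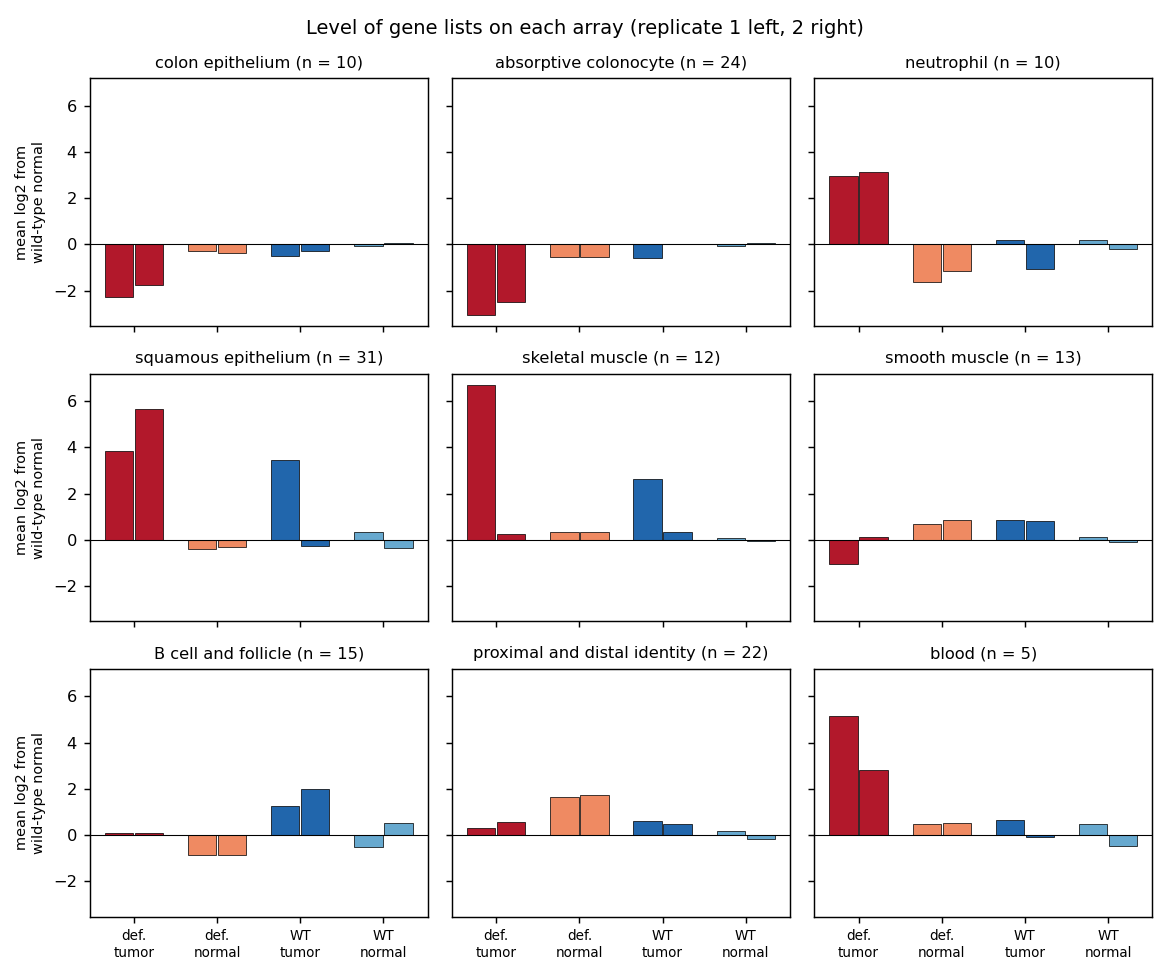
Mean log2 level of 9 gene lists on each array, relative to the mean of the wild-type normal arrays. Each panel is 1 list with its number of tested genes, each bar is 1 array, and the 2 bars of a group are replicates 1 and 2. Squamous genes were high on 3 of the 4 tumor arrays and skeletal muscle genes were highest on 1 deficient tumor array, while the genes of absorptive colonocytes were low on both deficient tumor arrays.

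In total 521 probes passed for the interaction, 3.91% of those tested. Of these, 206 were positive (1.55% of tested probes, from 172 genes) and 315 negative (2.36%, from 250 genes), and 2785 probes had an unadjusted p under 0.05. The median interaction over all tested probes was -0.01, with 5% below -1.65 and 5% above 1.62. Among the probes that passed, its size ran from 1.38 to 8.79 with a median of 2.56, against a median standard error of 0.40 over all probes tested. The last probe to pass had an adjusted p of 0.0499 and an interaction of size 3.28, and the next had 0.0505 and size 1.31. For all 521 probes, the 16 interactions that can be made from 1 array per group had the same sign, which was the case for 37.8% of all tested probes. These 16 use the same arrays as the test. Their agreement is therefore largely built in by the selection and is no separate support. A probe above background in 1 group alone entered the test through the group where it is high: of 745 probes above background on exactly 2 arrays 93 passed, so that their calls are partly fixed by the filter.

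The 4 differences behind the interaction came from the same fit and share arrays with it. Deficient tumors differed from deficient normal colon at 2581 probes, 19.4% of those tested, of which 1160 were higher and 1421 lower. Wild-type tumors differed from wild-type normal colon at 0 probes (0%), with a lowest adjusted p of 0.0927 and 1154 probes at an unadjusted p under 0.05. Without the second wild-type tumor array, the one that resembled normal colon, 105 probes passed in that comparison. Deficient normal colon differed from wild-type normal colon at 292 probes (2.19%), and deficient tumors from wild-type tumors at 2461 probes (18.5%).

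Among the 521 interactions, the tumor difference was larger in deficient mice at 491 probes, or 94.2%. The deficient tumor difference itself passed at 498 probes (95.6%) and the wild-type one at 0. The 2 tumor differences ran in opposite directions at 315 probes and in the same direction at 206. The difference between the genotypes passed in tumors at 413 of the 521 probes (79.3%) and in normal colon at 107 (20.5%). At 405 probes (77.7%) the genotype difference had opposite signs in tumors and in normal colon, and at 18 probes both passed with opposite signs. An interaction is the difference between the 2 tumor differences, and equally between the 2 genotype differences. Selecting on it therefore favours unequal sizes and opposite signs. The counts of signs and sizes describe the selected probes, and their shares over all tested probes were not computed.

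**Figure D2:**
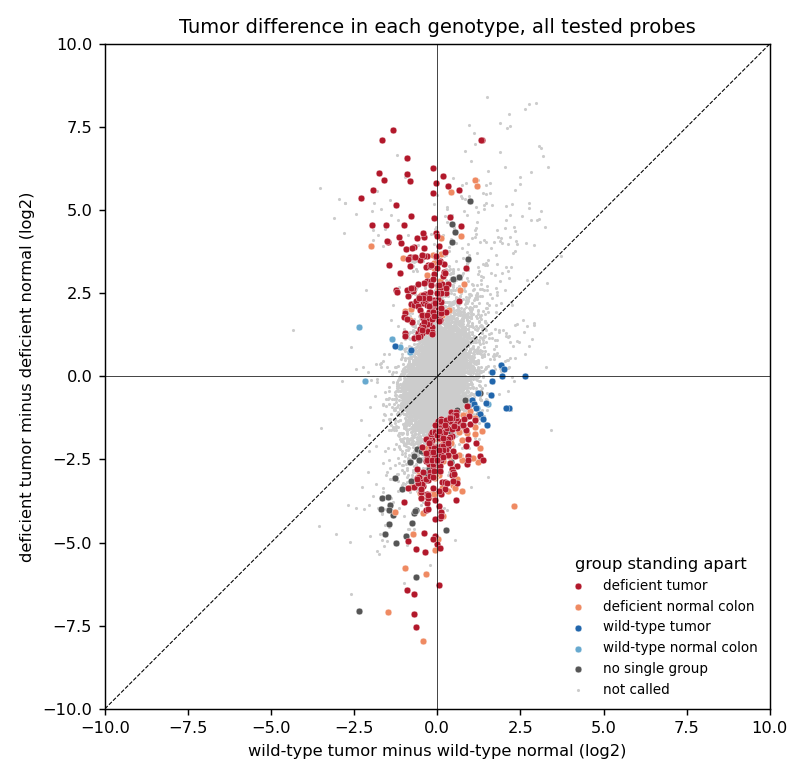
Tumor minus normal difference in deficient mice (vertical axis, log2) against the same difference in wild-type mice (horizontal axis, log2) for the 13327 tested probes. Each point is a probe, coloured points are the 521 with a passing interaction by the group that stands apart, and the dashed line marks equal differences. Most coloured points are spread along the vertical axis, far from 0 in deficient mice and near 0 in wild-type mice.

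To show which group carried each interaction, each group mean was left out in turn and the range of the other 3 was taken. The group whose removal left the smallest range was said to stand apart if that range was at most 50% of the size of the interaction. Deficient tumors stood apart at 343 of the 521 probes (65.8%), 160 positive and 183 negative. Deficient normal colon stood apart at 104 probes (20.0%), 31 positive and 73 negative. Wild-type tumors stood apart at 20 probes (3.84%), wild-type normal colon at 7 (1.34%), and no single group at 47 (9.02%). By the same rule over all 13327 tested probes, deficient tumors stood apart at 21.1%, deficient normal colon at 9.52%, wild-type tumors at 6.47%, wild-type normal colon at 4.53%, and no single group at 58.4%. These shares are unlike those of the 521, which were selected for a large interaction, and the limit is a fraction of it.

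The counts depended on single arrays. Without the second wild-type tumor array 119 probes passed, 104 of them among the 521, and deficient tumors stood apart at 58, deficient normal colon at 31 and wild-type tumors at 12. Without the first wild-type tumor array 339 passed. Without 1 array of deficient normal colon 50 or 22 passed, without 1 of wild-type normal colon 95 or 117, and without 1 of deficient tumors 384 or 1142. Of the 91 genes named by rule that passed, 8 passed without any 1 of the 8 arrays, and 59 did not pass without the second wild-type tumor array.

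**Figure D3:**
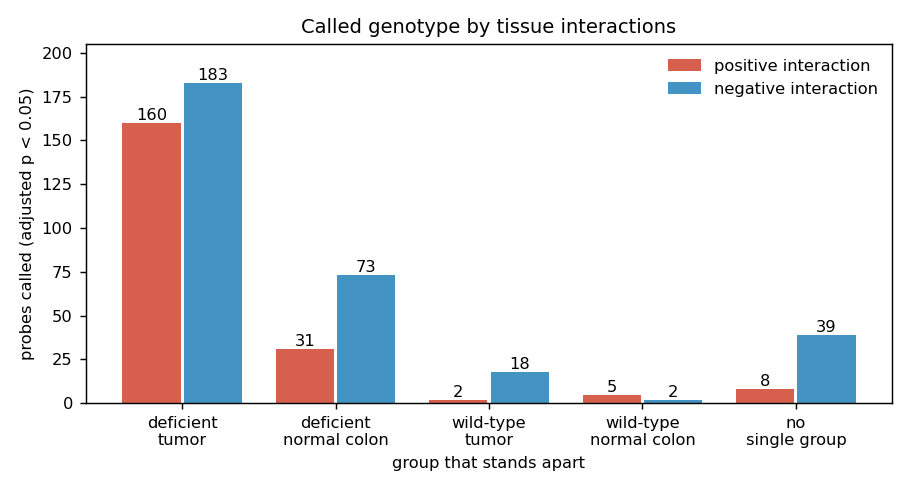
Number of probes with a passing interaction (vertical axis) by the group that stands apart (horizontal axis), with red bars for positive and blue bars for negative interactions. Deficient tumors account for 160 positive and 183 negative probes, and deficient normal colon for 31 and 73.

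Where deficient tumors stood apart upwards, the median interaction was 2.91, made of a median tumor difference of 2.63 in deficient mice and -0.31 in wild-type mice. All 160 probes passed for deficient against wild-type tumors, and 5 passed for deficient against wild-type normal colon. The rule asks for a large difference of deficient tumors and small ones among the other groups. Both counts are therefore largely built in and are no separate support. Genes with the largest interactions included those of neutrophils and of the factors that attract them.

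S100a8 and S100a9 encode the 2 subunits of calprotectin, the main protein of neutrophil cytoplasm. S100a8 read 14.93 and 15.12 in deficient tumors against 7.36 and 8.45 in deficient normal colon, with 10.71 and 9.5 in wild-type tumors against 11.70 and 11.85 in wild-type normal colon. Both deficient tumor arrays lay above all others, both deficient normal arrays lay below all others, and wild-type tumors lay below wild-type normal colon. The interaction was 8.79 ± 0.66 (SE, limma adjusted p = 0.00446), the largest of the 521. S100a9 read 14.20 and 14.86 in deficient tumors against 6.39 and 7.85 in deficient normal colon, with 9.80 and 7.42 in wild-type tumors against 10.15 and 9.72 in wild-type normal colon, with an interaction of 8.73 ± 1.09 (adjusted p = 0.0116). For S100a8 the genotype difference passed in both tissues with opposite signs, at 4.92 in tumors (adjusted p = 0.00229) and -3.87 in normal colon (adjusted p = 0.00849).

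Retnlg, a resistin-like protein made by mouse neutrophils, read 10.70 and 11.10 in deficient tumors against 4.94 and 5.10 in deficient normal colon, with 5.77 and 5.36 in wild-type tumors against 7.02 and 5.73 in wild-type normal colon. Signal was above background on both deficient tumor arrays and on 1 wild-type normal array only, and was at least 17.04-fold higher in deficient tumors than in deficient normal colon. Its interaction was 6.69 ± 0.59 (adjusted p = 0.00486). Lcn2, lipocalin-2, which starves bacteria of iron and is made by neutrophils and by inflamed epithelium, had an interaction of 5.51 ± 0.87 (adjusted p = 0.0216), which did not pass without the second wild-type tumor array.

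Of 10 tested neutrophil genes 6 passed, all positive and all with deficient tumors apart, against 4.03% of the 9341 genes tested, the share beside which each list count is read. Their median interaction was 4.56, beside 0.01 over all genes. The list averaged 2.98 and 3.15 log2 units from the wild-type normal mean in deficient tumors, -1.62 and -1.13 in deficient normal colon, with 0.21 and -1.06 in wild-type tumors. Of the 10, 3 passed without the second wild-type tumor array, and without either array of deficient normal colon 2 did.

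Cxcl1 and Cxcl2 are chemokines that draw neutrophils into tissue. Cxcl1 read 13.55 and 11.58 in deficient tumors against 6.40 and 6.53 in deficient normal colon, with 7.56 and 7.79 in wild-type tumors against 9.44 and 7.70 in wild-type normal colon. Its level in deficient tumors was at least 53.9-fold higher than in deficient normal colon, where it was above background on neither array, and its interaction was 6.99 ± 1.00 (adjusted p = 0.0166). Cxcl2 was above background in deficient tumors only, at 10.27 and 8.37, which put it at least 5.67-fold above deficient normal colon and at least 6.84-fold above wild-type tumors (interaction 4.73 ± 0.84, adjusted p = 0.0306). Cxcl2 entered the test through deficient tumors alone. Its interaction did not pass with no filter on dim probes, with no background correction or with the deposited series values. That of Cxcl1 did not pass with no filter on dim probes. Neither chemokine passed without the second wild-type tumor array.

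Il1b, the cytokine matured by caspase-1, read 12.82 and 12.81 in deficient tumors against 6.77 and 7.21 in deficient normal colon, with 10.11 and 7.51 in wild-type tumors against 8.81 and 8.86 in wild-type normal colon. Deficient tumors lay above every other array, and the wild-type tumor arrays lay on either side of the wild-type normal ones. The interaction was 5.85 ± 1.00 (adjusted p = 0.0271). Il11, an epithelial and stromal cytokine of the interleukin-6 family, read 10.48 and 9.89 in deficient tumors against 6.39 and 5.97 in deficient normal colon, with 6.28 and 6.11 in wild-type tumors against 7.5 and 7.10 in wild-type normal colon. It was above background in deficient tumors and wild-type normal colon, at least 10.4-fold higher in deficient tumors than in deficient normal colon and at least 12.5-fold higher there than in wild-type tumors. Its interaction of 5.12 ± 0.41 (adjusted p = 0.00486) passed without any 1 of the 8 arrays.

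Of 34 tested cytokines and chemokines 11 passed (32.4%), all positive, with a median interaction of 1.90 over the 34. In 10 of the 11 deficient tumors stood apart, among them Osm at 3.49, Ccl4 at 3.29, Ccl7 at 3.21 and Il6 at 2.46. In the eleventh, Tgfb1 at 1.96, deficient normal colon stood apart. Osm, Ccl4, Ccl7, Il6 and Tgfb1 were not followed singly when an array was left out. Without the first or the second deficient normal array fewer of the 34 passed, and their median was 2.16 or 1.89. Of the 34, 4 passed without the second wild-type tumor array.

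Matrix proteases and their inhibitors also included genes with deficient tumors apart. Mmp10, stromelysin-2, read 13.26 and 12.09 in deficient tumors against 6.18 and 6.04 in deficient normal colon, with 9.39 and 7.67 in wild-type tumors against 9.39 and 9.49 in wild-type normal colon. It was above background on neither deficient normal array, and was at least 58.2-fold higher in deficient tumors than there (interaction 7.47 ± 0.81, adjusted p = 0.0079). Of 16 tested members 14 were positive and 2 negative, and 6 passed (37.5%), all positive with deficient tumors apart, including Mmp13 (4.27), the protease inhibitor Timp1 (4.24), Plaur, the urokinase receptor (2.01), and its ligand Plau (1.88). For Mmp13, 1 of 2 tested probes passed, and both were positive. Of the 16, only Mmp10 passed without the second wild-type tumor array, and without either deficient normal array 0 did.

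Genes of other cells and of the stem-cell zone also had deficient tumors apart. Hdc, which makes histamine, read 13.90 and 12.08 in deficient tumors against 6.66 and 6.76 in deficient normal colon, with 8.66 and 7.14 in wild-type tumors against 7.78 and 8.31 in wild-type normal colon (interaction 6.43 ± 0.93, adjusted p = 0.0169). Itln1, a lectin that binds microbial sugars, read 13.19 and 11.04 in deficient tumors against 5.65 and 6.80 in deficient normal colon, with 6.81 and 6.80 in wild-type tumors against 10.08 and 6.75 in wild-type normal colon (interaction 7.5 ± 1.53, adjusted p = 0.0433). The 2 wild-type normal arrays thus differed by over 3 units for Itln1. The Itln1 interaction did not pass with no background correction, with array weights or with a trended and robust variance. Lgr5, a receptor that marks intestinal stem cells, read 9.12 and 8.94 in deficient tumors and was above background on 1 other array, with an interaction of 4.14 ± 0.80 (adjusted p = 0.0384). Ascl2, a transcription factor of the same cells, had an interaction of 2.64 ± 0.52 (adjusted p = 0.0393). Hdc, Itln1, Lgr5 and Ascl2 did not pass without the second wild-type tumor array. With no filter on dim probes Hdc, Itln1, Lgr5 and Ascl2 did not pass either, and Ascl2 was above background in deficient tumors alone. Lgr5 did not pass with array weights, nor Ascl2 with no background correction or the deposited series values. Lgr5 and Ascl2 were the genes that passed among 24 tested Wnt targets and inhibitors, whose median interaction was 2.00, and among 12 stem and progenitor genes, whose median was 0.86. Without the first deficient tumor array 0 of the 24 Wnt genes passed, and without the second 13 did.

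Other large positive interactions with deficient tumors apart were those of Evx1, a homeobox transcription factor (7.52 ± 0.77, adjusted p = 0.00765), Wfdc18, a whey acidic protein family member (6.50 ± 0.72, adjusted p = 0.00818), and Trim10, a ring-finger protein (6.11 ± 0.59, adjusted p = 0.00615). Evx1 also differed in normal colon, where deficient mice were lower by at least 5.46-fold (adjusted p = 0.0201).

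Squamous genes had the second-highest median of all lists, at 3.5, yet 4 of 31 passed. Lor, loricrin of the cornified layer, read 13.87 and 14.34 in deficient tumors against 7.19 and 6.79 in deficient normal colon, with 7.29 and 6.82 in wild-type tumors against 5.97 and 5.48 in wild-type normal colon. Its interaction, 5.79 ± 0.43 (adjusted p = 0.00446), passed without any 1 array. Calm4, a calmodulin-like protein of skin, read 11.77 and 12.60 in deficient tumors against 5.13 and 5.02 in deficient normal colon, with 7.74 and 4.86 in wild-type tumors against 4.98 and 4.91 in wild-type normal colon (interaction 5.75 ± 1.12, adjusted p = 0.0395). Krt1 (2.87) and Sbsn (2.40) were the others. Among keratins of the basal layer, Krt14 read 14.89 and 16.01 in deficient tumors against 8.23 and 8.82 in deficient normal colon, with 15.91 and 9.38 in wild-type tumors against 10.79 and 8.35 in wild-type normal colon, an interaction of 3.85 ± 2.59 (adjusted p = 0.451). Without the first wild-type tumor array, the one with squamous genes, the list's median was 6.01 and 15 genes passed. Without the second it was 1.30 and 3 passed, Krt1 not among them. The median for these genes thus moved with the wild-type tumor array used.

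**Figure D4:**
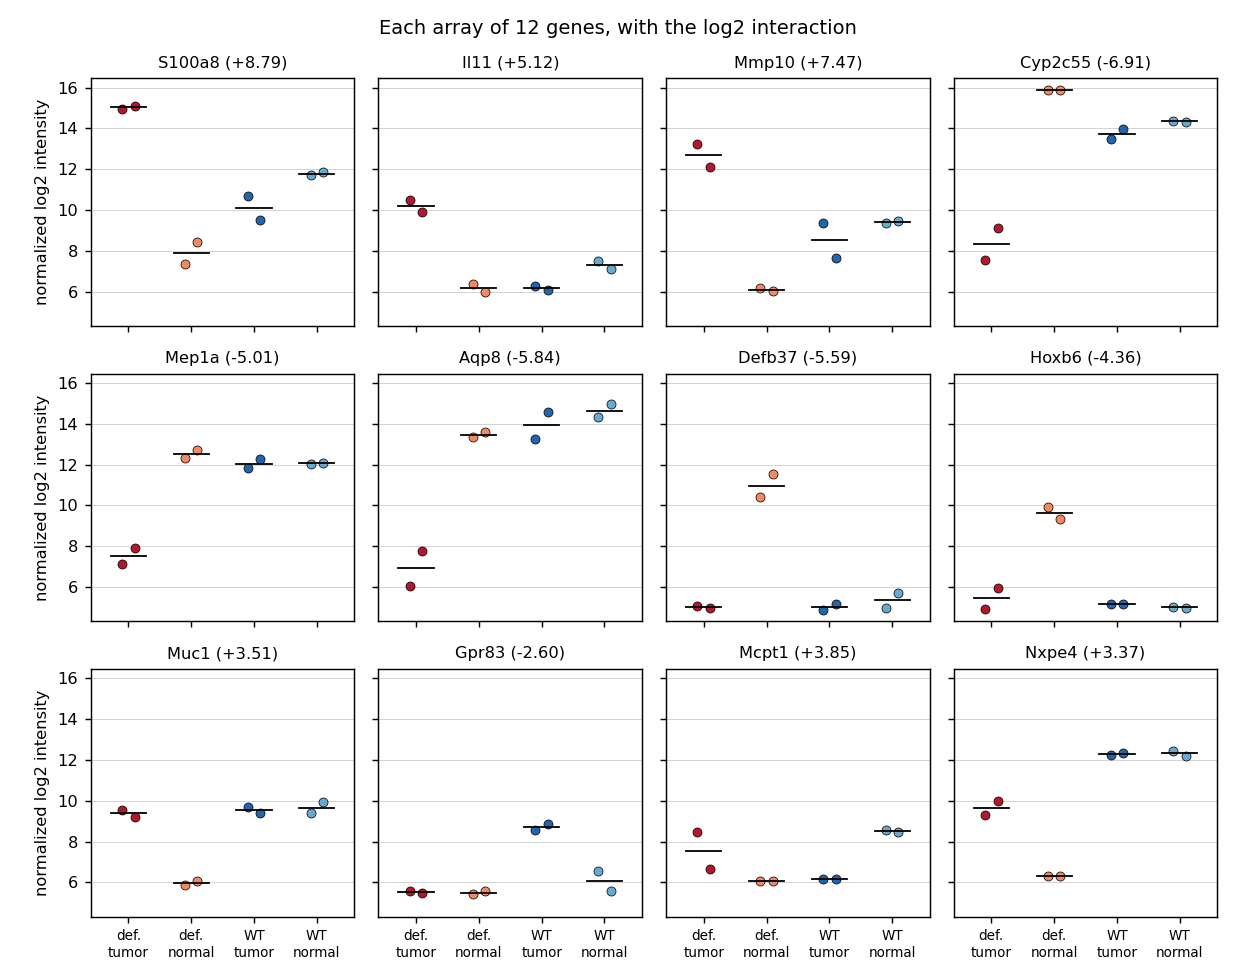
Normalized log2 intensity (vertical axis) of 12 genes on each of the 8 arrays, with points for arrays, horizontal lines for the mean of 2 arrays, and the interaction in the panel titles. From S100a8 to Aqp8 deficient tumors stand apart, from Defb37 to Muc1 deficient normal colon, then wild-type tumors for Gpr83, wild-type normal colon for Mcpt1, and no single group for Nxpe4.

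Where deficient tumors stood apart downwards, the median interaction was -2.45, made of a median tumor difference of -2.36 in deficient mice and 0.06 in wild-type mice. Of these 183 probes, 182 passed for deficient against wild-type tumors and 1 for deficient against wild-type normal colon. These counts too follow largely from the rule for standing apart. Leading genes included those of the absorptive surface and of detoxification.

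Cyp2c55, a cytochrome P450 of the colon that oxidizes fatty acids and drugs, read 7.58 and 9.12 in deficient tumors against 15.88 and 15.90 in deficient normal colon, with 13.48 and 13.96 in wild-type tumors against 14.38 and 14.32 in wild-type normal colon. Deficient tumors lay below all other arrays, deficient normal colon lay above all others, and the interaction was -6.91 ± 0.65 (adjusted p = 0.00571). Mep1a, a subunit of the brush-border protease meprin, read 7.12 and 7.91 in deficient tumors against 12.35 and 12.74 in deficient normal colon, with 11.82 and 12.26 in wild-type tumors against 12.03 and 12.10 in wild-type normal colon. The other 3 groups lay within 1 unit of each other, and the interaction was -5.01 ± 0.45 (adjusted p = 0.00502). Aqp8, a water channel of surface colonocytes, read 6.07 and 7.76 in deficient tumors against 13.34 and 13.60 in deficient normal colon, with 13.25 and 14.59 in wild-type tumors against 14.31 and 14.95 in wild-type normal colon (interaction -5.84 ± 0.87, adjusted p = 0.0178). The Aqp8 interaction did not pass without the second wild-type tumor array.

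Sult1d1, a sulfotransferase, read 5.35 and 8.84 in deficient tumors, against 13.02 and 13.70 in deficient normal colon, and lay between 11.80 and 11.87 on the 4 wild-type arrays. It was above background on 1 of the 2 deficient tumor arrays, and its interaction was -6.31 ± 1.32 (adjusted p = 0.0464). Hao2, a peroxisomal oxidase of hydroxy fatty acids, was likewise above background on 1 deficient tumor array, at 4.78 and 7.74 there, against 12.73 and 12.64 in deficient normal colon, with 11.12 and 11.77 in wild-type tumors against 12.61 and 12.07 in wild-type normal colon (interaction -5.52 ± 1.15, adjusted p = 0.0457). Neither Sult1d1 nor Hao2 passed with median scaling, cyclic loess, a trended and robust variance or no filter on dim probes. Selenbp1, a selenium-binding protein of mature colonocytes, read 9.55 and 10.67 in deficient tumors and between 14.49 and 15.52 on the other 6 arrays (interaction -5.27 ± 0.62, adjusted p = 0.00969). None of Sult1d1, Hao2 and Selenbp1 passed without the second wild-type tumor array. Ehhadh, an enzyme of peroxisomal fatty acid oxidation, was above background in every group but deficient tumors, where it was at least 7.29-fold lower than in deficient normal colon and at least 4.196-fold lower than in wild-type tumors (interaction -3.39 ± 0.42, adjusted p = 0.0111).

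Of 43 tested genes of xenobiotic metabolism 17 passed (39.5%), all negative, with a median interaction of -2.15 over the 43. Deficient tumors stood apart in 10 of them, deficient normal colon in 4 and no single group in 3. The 10 included the nuclear receptor Nr1i2, which switches on many of these enzymes (-2.12 ± 0.34, adjusted p = 0.0224), the flavin monooxygenase Fmo5 (-4.33) and the sulfotransferase Sult1a1 (-4.75). Relative to the wild-type normal mean the list averaged -2.26 and -1.64 in deficient tumors, 0.54 and 0.69 in deficient normal colon, with -0.30 and -0.08 in wild-type tumors. Deficient normal colon was thus the highest group and deficient tumors the lowest. The number that passed was 7 without the second wild-type tumor array, Sult1a1 not among them, 13 without the first, and 5 and 1 without either deficient normal array.

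Of 24 tested genes of absorptive colonocytes 7 passed (29.2%), 6 negative and 1 positive, with a median of -1.81. Slc26a3, the chloride-bicarbonate exchanger, read 5.02 and 4.94 in deficient tumors against 6.89 and 6.98 in deficient normal colon, with 7.38 and 8.25 in wild-type tumors against 7.61 and 7.54 in wild-type normal colon (interaction -2.19 ± 0.42, adjusted p = 0.0384). The Slc26a3 interaction did not pass with no background correction, an offset of 50 or no filter on dim probes. Of 25 tested genes of fatty acid oxidation and ketogenesis 5 passed (20.0%), all negative, with a median of -1.22. Without the second wild-type tumor array 1 of the 24, Slc51a, and 2 of the 25 passed, and without either deficient normal array 0 of each did. Of 10 tested colon epithelium markers 2 passed, Aqp8 and Slc26a3, with a median of -1.24, and neither did without the second wild-type tumor array. Krt8, a keratin of all colon epithelium, had an interaction of -0.24 ± 0.28 (adjusted p = 0.673), and Lgals4, a galectin of gut epithelium, one of -0.52 ± 0.28 (adjusted p = 0.345).

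Deficient normal colon stood apart at 104 probes. By the rule that picked them, their genotype difference lay mainly in normal colon. Upwards the median interaction was 2.80, with a median genotype difference of -2.19 in normal colon and 0.48 in tumors. Downwards it was -2.70, with genotype differences of 2.21 in normal colon and -0.35 in tumors. The genotype difference in normal colon passed at 22 of 31 and 58 of 73 of these probes, and the genotype difference in tumors at 8 and 8. The rule favours such counts, so they describe the selection. At 41 of the 104 probes (39.4%) the deficient tumor mean lay within the range of the 4 wild-type arrays. The rule itself keeps that mean near the wild-type means, and the share over all tested probes was not computed. Adipocyte, enteric neuron and smooth muscle genes were raised on both deficient normal arrays, at the levels given above, and their part in these interactions was not tested.

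Defb37, a beta-defensin gene, read 5.07 and 5.00 in deficient tumors against 10.41 and 11.52 in deficient normal colon, with 4.87 and 5.17 in wild-type tumors against 4.99 and 5.73 in wild-type normal colon. Only deficient normal colon was above background, and Defb37 was at least 23.1-fold lower in deficient tumors and at least 17.4-fold higher than in wild-type normal colon. Its interaction of -5.59 ± 0.57 (adjusted p = 0.00765) passed without any 1 array. Slc51a, a subunit of the transporter that exports bile acids from enterocytes, read 6.14 and 6.36 in deficient tumors against 13.06 and 13.62 in deficient normal colon, with 5.41 and 6.86 in wild-type tumors against 7.70 and 7.55 in wild-type normal colon (interaction -5.60 ± 0.64, adjusted p = 0.00877). Sis, sucrase-isomaltase, a digestive enzyme of the small intestine, was above background in deficient normal colon alone, at 8.00 and 9.43, and was at least 3.66-fold higher there than in wild-type normal colon (interaction -3.44 ± 0.60, adjusted p = 0.0284). The Sis interaction did not pass with no background correction or with the deposited series values. Defb37 and Sis entered the test through that group alone, and Sis did not pass with no filter on dim probes or without the second wild-type tumor array.

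Several of these genes mark position along the gut or body axis. Hoxb6, a homeobox gene, read 4.92 and 5.98 in deficient tumors against 9.92 and 9.36 in deficient normal colon, with 5.18 and 5.19 in wild-type tumors against 5.04 and 5.00 in wild-type normal colon. Only deficient normal colon was above background, through which Hoxb6 entered the test, by at least 6.94-fold over wild-type normal colon, with an interaction of -4.36 ± 0.52 (adjusted p = 0.01). Hoxb7, its neighbour in the cluster, read 6.98 and 8.86 in deficient tumors against 11.31 and 11.41 in deficient normal colon, with 7.45 and 6.56 in wild-type tumors against 6.43 and 6.12 in wild-type normal colon (interaction -4.17 ± 0.81, adjusted p = 0.0393). Osr2, a zinc-finger transcription factor, read 8.99 and 9.11 in deficient tumors against 13.10 and 12.79 in deficient normal colon, with 9.66 and 8.07 in wild-type tumors against 7.72 and 5.39 in wild-type normal colon (interaction -6.20 ± 1.07, adjusted p = 0.0282). Neither Hoxb7 nor Osr2 passed without the second wild-type tumor array.

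Of 22 tested genes of proximal and distal gut identity 7 passed, 6 negative and 1 positive, with a median of -2.18. The list pools proximal with distal genes, so its median and averages give no direction along the gut. Deficient normal colon stood apart in 5 of the 7. Without the first or the second deficient normal array fewer passed, and the list median was -2.31 or -2.07. In the comparison of deficient with wild-type normal colon, 9 of the 22 were higher and 2 lower, against 2.19% of all probes in either direction. The list averaged 0.29 and 0.58 log2 units from the wild-type normal mean in deficient tumors, 1.67 and 1.74 in deficient normal colon, with 0.59 and 0.47 in wild-type tumors. Hoxd13, a homeobox gene of the most posterior body, did not share this order. It averaged 7.88 in deficient tumors and 5.08 in deficient normal colon, with 9.31 in wild-type tumors against 6.00 in wild-type normal colon (interaction -0.50 ± 0.72, adjusted p = 0.746). Which stretch of colon each sample came from is not stated, so position and genotype cannot be told apart in normal colon. Of the 22, 2 passed without the second wild-type tumor array.

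Cyp2c65, a close relative of Cyp2c55, had deficient normal colon apart. It read 5.14 and 5.60 in deficient tumors against 13.33 and 13.35 in deficient normal colon, with 8.47 and 8.36 in wild-type tumors against 7.99 and 9.69 in wild-type normal colon. Both genotype differences passed with opposite signs: it was at least 3.93-fold lower in deficient than in wild-type tumors (adjusted p = 0.00916), and by 4.50 log2 units higher in normal colon of deficient mice (adjusted p = 0.00614). The interaction was -7.54 ± 0.70 (adjusted p = 0.00544), the most negative of the named genes. Ugt2b36, a glucuronosyltransferase, showed the same order of groups, was above background in every group but deficient tumors, and kept its interaction of -5.17 ± 0.46 (adjusted p = 0.00502) without any 1 array. Probes of the Cyp2c and Ugt2b families may bind transcripts of near-identical relatives, so that these values are uncertain as to which member they report.

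Upward interactions with deficient normal colon apart came from genes with their lowest mean in that group. Muc1, a membrane mucin, read 9.53 and 9.23 in deficient tumors against 5.86 and 6.08 in deficient normal colon, with 9.71 and 9.41 in wild-type tumors against 9.40 and 9.92 in wild-type normal colon. It was at least 7.20-fold lower in normal colon of deficient mice than of wild-type mice, and the tumors of both genotypes overlapped (interaction 3.51 ± 0.38, adjusted p = 0.0079, with 3 of 4 probes passing). Anxa8, an annexin, read 11.36 and 12.24 in deficient tumors against 5.95 and 5.81 in deficient normal colon, with 12.63 and 11.37 in wild-type tumors against 10.82 and 10.88 in wild-type normal colon (interaction 4.77 ± 0.63, adjusted p = 0.0132). Ctse, the protease cathepsin E, read 11.41 and 10.69 in deficient tumors against 7.87 and 6.91 in deficient normal colon, with 12.24 and 11.94 in wild-type tumors against 12.22 and 12.20 in wild-type normal colon (interaction 3.79 ± 0.53, adjusted p = 0.0165). The tumor difference of deficient mice passed for all 3, and the difference of deficient from wild-type tumors was -0.18 for Muc1, -0.20 for Anxa8 and -1.04 for Ctse, none of which passed. Krt90, Lrg1 and Marcksl1 had interactions of 5.90, 4.60 and 4.05. Ctse, Krt90 and Lrg1 did not pass without the second wild-type tumor array.

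Wild-type tumors stood apart at 20 probes, 18 of them negative, with a median wild-type tumor difference of 1.55 and a deficient one of -0.74. Deficient and wild-type tumors differed at all 18, which the rule favours, while the wild-type tumor difference passed at 0 of them. Gpr83, a G protein-coupled receptor found on regulatory T cells and in brain, read 5.56 and 5.50 in deficient tumors against 5.45 and 5.56 in deficient normal colon, with 8.56 and 8.85 in wild-type tumors against 6.58 and 5.57 in wild-type normal colon. Only wild-type tumors were above background, and deficient tumors were at least 4.80-fold lower (interaction -2.60 ± 0.48, adjusted p = 0.0334). H2-Eb2, a class II antigen presentation gene, was also above background there alone, at 7.78 and 8.16, with an interaction of -1.80 ± 0.33 (adjusted p = 0.0334). Ank1, an ankyrin, read 7.85 and 8.26 in deficient tumors against 8.88 and 9.13 in deficient normal colon, with 10.30 and 9.97 in wild-type tumors against 8.35 and 7.64 in wild-type normal colon (interaction -3.10 ± 0.43, adjusted p = 0.0165). Gpr83 and H2-Eb2 entered the test through wild-type tumors alone, and Gpr83 did not pass with no filter on dim probes or with array weights. H2-Eb2 did not pass with no background correction or with the deposited series values. None of these 3 passed without the second wild-type tumor array.

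H2-Eb2 was the gene that passed among 11 tested class II genes, and 0 of 15 tested B cell and follicle genes did, with medians of -0.25 and -0.60. The B cell genes averaged 0.11 and 0.11 log2 units from the wild-type normal mean in deficient tumors, -0.84 and -0.86 in deficient normal colon, with 1.25 and 2.00 in wild-type tumors against -0.53 and 0.53 in wild-type normal colon. In deficient against wild-type tumors 8 of the 15 fell and none rose, beside 18.5% of all probes in either direction. Cxcr5, the receptor that guides B cells to follicles, read 6.55 and 5.96 in deficient tumors against 5.78 and 5.40 in deficient normal colon, with 8.36 and 8.83 in wild-type tumors against 5.60 and 6.32 in wild-type normal colon (interaction -1.97 ± 0.49, adjusted p = 0.0693). Of its 3 tested probes 1 passed. Both wild-type tumor arrays lay above the other 6 arrays for Cxcr5 and for the list mean.

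Wild-type normal colon stood apart at 7 probes. Mcpt1, a protease of mucosal mast cells, read 8.46 and 6.65 in deficient tumors against 6.08 and 6.06 in deficient normal colon, with 6.17 and 6.15 in wild-type tumors against 8.58 and 8.47 in wild-type normal colon. It was above background in deficient tumors and wild-type normal colon, with at least 3.95-fold lower levels in wild-type tumors than in wild-type normal colon (interaction 3.85 ± 0.72, adjusted p = 0.0355). The 2 deficient tumor arrays differed, and the first lay with the wild-type normal ones. Btn1a1, a butyrophilin, was above background in wild-type normal colon alone, at 7.23 and 7.59, against 5.16 and 5.20 in deficient normal colon (interaction 2.02 ± 0.31, adjusted p = 0.0198). Of 7 tested mast cell genes 3 passed, all positive, Hdc with deficient tumors apart and Mcpt1 with wild-type normal colon apart. Fcer1a, a chain of the IgE receptor, read 7.19 and 6.92 in deficient tumors against 6.19 and 6.35 in deficient normal colon, with 6.12 and 6.29 in wild-type tumors against 6.93 and 7.06 in wild-type normal colon. By the rule wild-type tumors stood apart, but deficient normal colon was about as low, and the rule gave wild-type tumors in only 9 of 20 settings. Hdc, Mcpt1, Btn1a1 and Fcer1a did not pass without the second wild-type tumor array, and Mcpt1 did not pass with no filter on dim probes. Btn1a1 entered the test through wild-type normal colon alone. With no background correction or with the deposited series values Mcpt1, Btn1a1 and Fcer1a did not pass either.

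No single group stood apart at 47 probes, where the means were graded. Nxpe4 read 9.32 and 9.97 in deficient tumors against 6.32 and 6.30 in deficient normal colon, with 12.26 and 12.33 in wild-type tumors against 12.45 and 12.19 in wild-type normal colon. Both deficient groups lay below all wild-type arrays, by at least 45.6-fold in normal colon, and deficient tumors lay between (interaction 3.37 ± 0.37, adjusted p = 0.00837). Atp12a, a proton-potassium pump of the distal colon, read 11.23 and 10.89 in deficient tumors against 7.46 and 7.59 in deficient normal colon, with 14.31 and 14.21 in wild-type tumors against 13.69 and 12.97 in wild-type normal colon. Its genotype difference passed in both tissues with the same sign, at -3.20 in tumors and -5.81 in normal colon, and its interaction was 2.60 ± 0.41 (adjusted p = 0.0211), which did not pass without the second wild-type tumor array. In the other direction, Hkdc1, a hexokinase-like protein, read 5.23 and 5.71 in deficient tumors against 11.37 and 11.63 in deficient normal colon, with 7.27 and 8.57 in wild-type tumors against 8.43 and 8.69 in wild-type normal colon (interaction -5.39 ± 0.59, adjusted p = 0.0079). Deficient normal colon lay above and deficient tumors below the wild-type arrays. Aldh1a1, which makes retinoic acid, had the same order, with an interaction of -3.85 ± 0.42 (adjusted p = 0.0079).

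The caspase genes themselves showed no passing interaction. Casp12 read 6.97 and 5.96 in deficient tumors against 6.50 and 7.21 in deficient normal colon, with 5.73 and 5.88 in wild-type tumors against 5.84 and 5.83 in wild-type normal colon. It was above background on 1 of 2 arrays of each deficient group and on no wild-type array, and its interaction was -0.37 ± 0.53 (adjusted p = 0.744). Whether its probe lies in a deleted stretch is not stated, so it does not check the genotype labels. Casp1 read 13.12 and 13.26 in deficient tumors against 14.05 and 14.57 in deficient normal colon, with 14.24 and 14.23 in wild-type tumors against 14.12 and 14.41 in wild-type normal colon. Deficient tumors lay below the other 6 arrays, with a difference of -1.05 from wild-type tumors (adjusted p = 0.0282), but the interaction, -1.09 ± 0.35, did not pass (adjusted p = 0.133). Il18, the other cytokine matured by caspase-1, was lower in deficient mice in both tissues, at a difference of -1.61 in tumors (adjusted p = 0.0345) and -2.32 in normal colon (adjusted p = 0.0368), with an interaction of 0.72 ± 0.58 (adjusted p = 0.537). Casp4 had an interaction of 0.00 ± 0.47 (adjusted p = 0.998), and its 3 tested probes did not agree in direction. Of 13 tested inflammasome genes 1 passed, Il1b, and of 20 tested genes of NOD and NF-kB signalling 1 passed, Bcl3, a nuclear cofactor of NF-kB, with deficient normal colon apart (2.53 ± 0.45, adjusted p = 0.0306). Of 15 tested neighbours of Casp12 on chromosome 9, 2 passed, Mmp10 and Mmp13. Bcl3 and Mmp13 did not pass without the second wild-type tumor array.

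Lists of basic cell functions had passing shares near the 4.03% of all genes or below it. Of 26 tested genes of the cell cycle 1 passed, Mcm2, a subunit of the replicative helicase (1.76 ± 0.35, adjusted p = 0.0426), and 24 of the 26 were positive with a median of 0.80. None of 19 ribosome biogenesis genes (median 0.79), 30 oxidative phosphorylation genes (median -0.25) or 12 T cell genes (median 0.15) passed. Of 19 genes of the ER stress response 1 passed, Dnajb9 (-1.40 ± 0.30, adjusted p = 0.0491). Of 22 interferon-stimulated genes 1 passed, Irf7, with deficient normal colon apart (-2.29 ± 0.43, adjusted p = 0.0362). Of the 22, 17 were positive and 5 negative, with a median of 0.71, so Irf7 ran against most of its list. The smooth muscle list had a higher share: 2 of 13 tested genes passed (15.4%), Des and Pln, and all 13 were negative with a median of -2.14. Mcm2, Dnajb9, Irf7, Des and Pln did not pass without the second wild-type tumor array. Without the second deficient tumor array 12 of the 13 passed and without the first 0 did. Skeletal muscle genes had a median of 1.86 with 0 of 12 passing, and the median was 5.63 without the second deficient tumor array and -1.75 without the first, so its sign was that of 1 array.

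**Figure D5:**
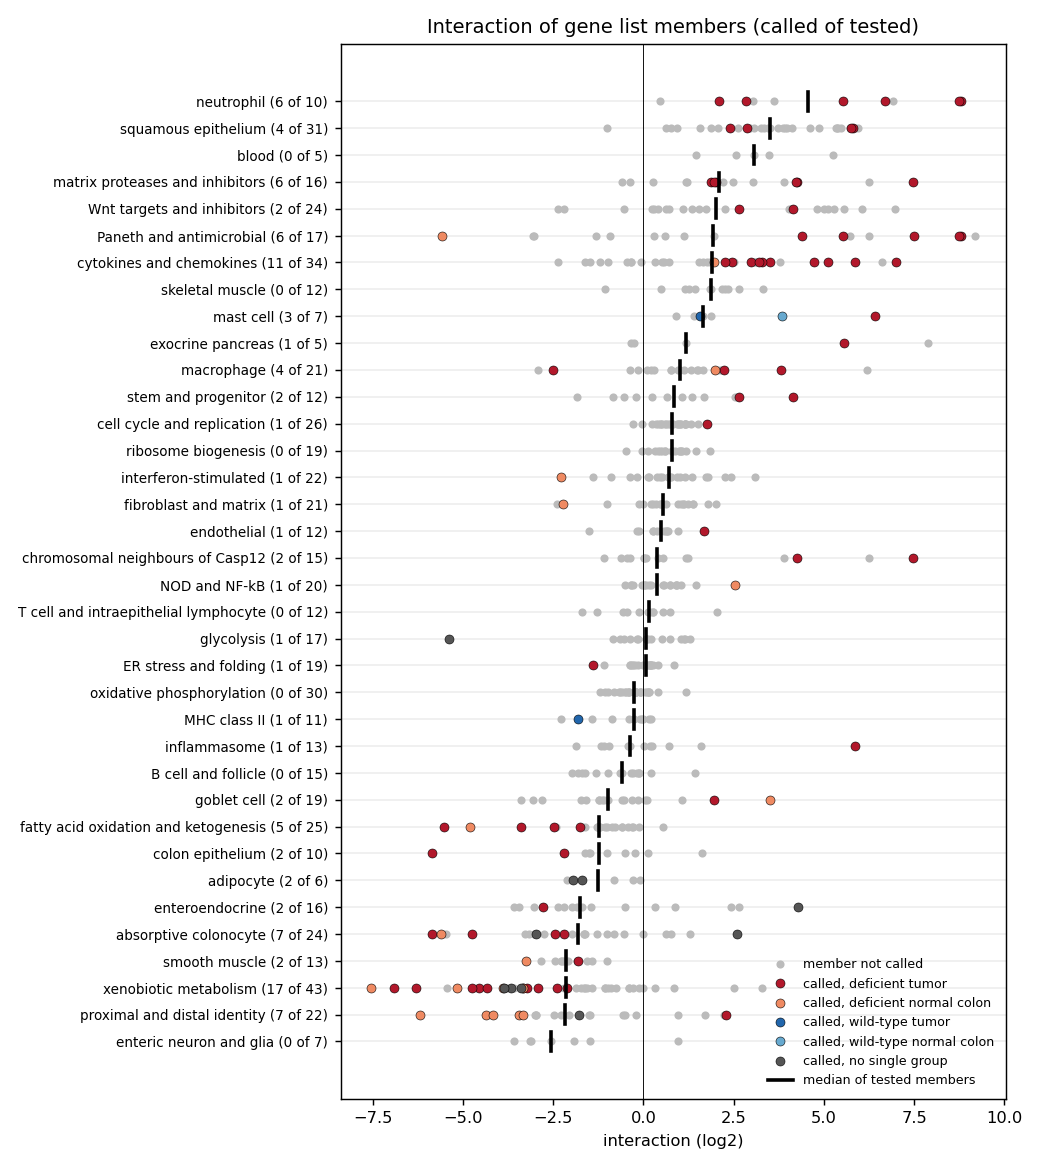
Interaction (horizontal axis, log2) of the tested members of 36 gene lists, ordered by their median (black bar). Grey points did not pass, coloured points passed and are coloured by the group that stands apart, and the labels give passing over tested members. Neutrophil, protease and cytokine lists lie to the right with deficient tumors apart, and xenobiotic metabolism and gut identity lists lie to the left, the gut identity list with mostly deficient normal colon apart.

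Sequences before the start sites were read to see whether genes with the same group apart shared short motifs, which the interactions did not use. They come from RefSeq on build GRCm38.p6 and cover the 250 bases before each start. The motifs were chosen with the values known and searched on both strands: GGGA followed by any 4 bases and CC, the core of the NF-kB site, TGANTCA for AP-1, CAAAGTCCA for HNF4 and TTGCNNAA for C/EBP. Cxcl1 is shown because it has the largest interaction among the chemokines, and Cyp2c55 and Cyp2c65 because these relatives had different groups apart. Capitals mark motif matches.
Cxcl1, chr5:90890995-90891244, plus strand: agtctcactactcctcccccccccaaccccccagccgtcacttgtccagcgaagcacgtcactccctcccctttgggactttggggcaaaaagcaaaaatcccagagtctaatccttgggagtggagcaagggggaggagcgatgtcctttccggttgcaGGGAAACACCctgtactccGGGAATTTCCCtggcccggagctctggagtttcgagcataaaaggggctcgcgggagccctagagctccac
Cyp2c55, chr19:39006769-39007018, plus strand: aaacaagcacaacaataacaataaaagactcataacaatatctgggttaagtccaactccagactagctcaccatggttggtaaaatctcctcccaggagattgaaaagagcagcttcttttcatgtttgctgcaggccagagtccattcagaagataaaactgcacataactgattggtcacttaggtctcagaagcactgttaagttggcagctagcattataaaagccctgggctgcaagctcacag
Cyp2c65, chr19:39060756-39061005, plus strand: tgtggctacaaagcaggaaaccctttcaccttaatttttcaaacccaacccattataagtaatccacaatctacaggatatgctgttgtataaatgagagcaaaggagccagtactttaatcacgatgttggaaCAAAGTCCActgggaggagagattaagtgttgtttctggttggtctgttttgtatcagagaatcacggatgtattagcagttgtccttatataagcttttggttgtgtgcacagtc
Cxcl1 held 3 matches of the NF-kB motif, which begin 90, 71 and 70 bases before the start, the last 2 overlapping. Cyp2c65 held 1 match of the HNF4 motif, beginning 116 bases before its start, and Cyp2c55 held none of the 4 motifs in this window.

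Over groups of genes, the NF-kB motif was in 35.1% of 114 promoters where deficient tumors stood apart upwards, in 32.8% of 125 where they stood apart downwards, and in 22.5% of the 9759 promoters of tested genes. The AP-1 motif was in 13.2% of the upward promoters, 2.40% of the downward ones and 5.15% of those of tested genes. With deficient normal colon apart, the NF-kB motif was in 2 of 12 upward and 12 of 59 downward promoters. The HNF4 motif was in 1 of these 59 and in 0.410% of the promoters of tested genes. It was in 0 of 114 and 0 of 125 promoters with deficient tumors apart. The C/EBP motif was in 16 of the 114 upward promoters, 13 of the 125 downward ones and 8.02% of those of tested genes. Over all 32851 promoters of this length the shares were 17.6% for NF-kB, 6.75% for AP-1, 0.384% for HNF4 and 9.56% for C/EBP. Of the 132 upward and 117 downward genes with deficient tumors apart, 98 and 100 had a promoter in the table. These shares are descriptions, were not tested, and say nothing of binding.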

How the data were processed

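The deposited table held, per the file headers, intensities with detection p-values for 25697 probes and 8 arrays; the submitters' processing notes name BeadStudio 3.2.7. The authors' deposited series table of log2 values equals the log2 intensity minus the log2 of each array's mean intensity, with differences up to 1.7e-05, and served as an alternative. Scale and direction are thus known.

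Intensities were background corrected, quantile normalized and put on the log2 scale with neqc (limma 3.58.1, R 4.3.3), using 798 detection steps to place the negative controls and an offset of 16. One limma fit of 4 group means (4 residual and 3.55 prior degrees of freedom) gave all two-sided tests. GEO's platform annotation gave 23978 probes 1 symbol and 1719 none; of the probes tested, 12571 had a symbol, for 9341 genes. For each gene the tested probe with the highest mean was used. Where no array of a group was above background, a fold is a bound ("at least"), with that group set per array at the lower limit of probes above background. The procedure was tested on simulated data. Groups came from the sample titles.

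Named genes were Casp12 and other caspase genes, the 12 largest interactions in each direction with 16 single-array interactions of 1 sign, up to 6 in each direction for each group standing apart, and up to 4 passing members of each gene list, or 2 where none passed; other genes were named after their values were seen, as examples of a list. The members, gene lists and tests were chosen with earlier results of these data known. The number of arrays limits the precision. Alternatives covered background correction, offset, scaling, the filter on dim probes, variance weights, a replicate block, and leaving out each array.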

Additional observations from a re-analysis of the deposited data

Results flagged for a closer look

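Each result here was noted because the tumor difference itself differed between the genotypes by the limma interaction test. Of 13327 probes 521 passed, 206 positive and 315 negative, with deficient tumors apart at 343 and deficient normal colon at 104. 

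The largest positive interactions on the log2 scale were those of S100a8 (8.79), S100a9 (8.73), Evx1 (7.52), Itln1 (7.5), Mmp10 (7.47) and Cxcl1 (6.99). They were followed by Retnlg (6.69), Wfdc18 (6.50), Hdc (6.43), Trim10 (6.11), Krt90 (5.90) and Il1b (5.85). Of these 12, Krt90, a type II keratin, had deficient normal colon apart and the others had deficient tumors apart. Krt90 read 10.12 and 8.43 in deficient tumors against 5.46 and 5.27 in deficient normal colon, with 6.38 and 7.28 in wild-type tumors against 8.12 and 9.53 in wild-type normal colon.

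The largest negative interactions were those of Cyp2c65 (-7.54), Cyp2c55 (-6.91), Sult1d1 (-6.31), Osr2 (-6.20), Aqp8 (-5.84) and Slc51a (-5.60). They were followed by Defb37 (-5.59), Hao2 (-5.52), Hkdc1 (-5.39), Selenbp1 (-5.27), Ugt2b36 (-5.17) and Mep1a (-5.01). Deficient normal colon stood apart for Cyp2c65, Osr2, Slc51a, Defb37 and Ugt2b36, no single group for Hkdc1, and deficient tumors for the other 6.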

How the results depend on the processing

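The 521 interactions kept their sign with the deposited series values, cyclic loess, median scaling, an offset of 50 and no background correction; the other settings leave the estimates, or by construction the signs, as they are. With no filter on dim probes 297 passed (115 positive, 182 negative), with deficient tumors apart at 186 and deficient normal colon at 69. More probes are then adjusted for. Named genes that did not pass there included Aqp8, Ascl2, Bcl3, Calm4, Chga, Cxcl1, Cxcl2, Des, Fap, Fcer1g, Gpr83, Hao2 and Hdc. They also included Hoxb7, Il1b, Irf7, Isl1, Itln1, Krt90, Lcn2, Lgr5, Lrg1, Mcm2, Mcpt1 and Mmp13. Further ones were Osr2, Pln, Pparg, Rnase1, Sis, Slc26a3, Sult1a1, Sult1d1 and Timp1. With detection on all 8 arrays 329 passed (102 positive), with 226, 58 and, for wild-type tumors, 9 apart. The deposited series values gave 122 positive. For wild-type tumors 10 stood apart with these values, 10 with no background correction, 12 with an offset of 50 and 13 with a trended and robust variance. With the stricter rule for standing apart, at 0.25 of the interaction, 183, 39 and 5 probes had deficient tumors, deficient normal colon and wild-type tumors apart. Leaving out 1 array gave 22 to 1142 probes, 16 to 483 positive, 6 to 659 negative, 17 to 811 with deficient tumors apart, 3 to 179 with deficient normal colon and 0 to 36 with wild-type tumors; the lone array is assumed to vary as the other groups do. The highest counts came without the second deficient tumor array and the lowest total without the second deficient normal array; the cause was not tested. Deviations of same-numbered arrays correlated between -0.031 and 0.161, so the numbers were not taken as pairs; the replicate block gave 498 probes, 420 of them shared. Of 91 named genes that passed, 40 passed under all alternatives other than left-out arrays, and 8 also without any 1 array (Defb37, Il11, Krt84, Lor, Retnlg, S100a8, Ugt2b36 and Wfdc18). Without the second wild-type tumor array 59 of the 91 no longer passed, and without the first 36. A slide block was not run because the files name no slides.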

Other observations

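Of 17 tested Paneth cell and antimicrobial genes 6 passed (35.3%, beside 4.03% of all genes), 5 positive with deficient tumors apart and Defb37 negative. Saa3, an acute-phase protein, had an interaction of 4.40 ± 0.83 (limma adjusted p = 0.0362). Reg3b, a lectin that kills bacteria, averaged 9.80 in deficient tumors and 14.3 in deficient normal colon, with 7.74 in wild-type tumors and 11.3 in wild-type normal colon (interaction -0.93 ± 2.17, adjusted p = 0.854). Its other tested probe did not pass either. Of 21 tested macrophage genes 4 passed (19.0%), Clec4d (3.81), Fcer1g (2.24) and Cd14 (1.99) upwards and Mertk (-2.49), a receptor for dying cells, downwards. Of these 4, Clec4d passed without the second wild-type tumor array.

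Of 19 tested goblet cell genes 2 passed, Muc1 and Tff1, a trefoil peptide (1.95 ± 0.30, adjusted p = 0.0201), with a list median of -0.98. Of 16 tested enteroendocrine genes 2 passed, Isl1, a transcription factor (4.28), and Chga, chromogranin A (-2.78), for which 2 of 3 probes passed. Of the 16, 11 were negative and 5 positive, with a median of -1.76, so Isl1 ran against most of its list. Of 6 tested adipocyte genes 2 passed (33.3%), Pparg (-1.96) and Acvr1c (-1.71). Acvr1c was above background in deficient normal colon alone, through which it entered the test. Single members passed in several lists, at shares of 8.33%, 4.76% and 5.88% for the first 3: of 12 endothelial genes Cdh5 (1.67), of 21 fibroblast genes Fap (-2.23), of 17 glycolysis genes Hkdc1, of 5 exocrine pancreas genes Rnase1 (5.55), and of 3 sex-linked genes Kdm5d (-1.46). Cdh5 was above background in deficient tumors alone, through which it entered the test. The medians of these lists were 0.48, 0.53, 0.08, 1.19 and -0.6 in that order. Of the fibroblast genes 16 were positive and 5 negative, so Fap ran against most of its list. Of the glycolysis genes 10 were positive and 7 negative. Apart from Muc1 and Hkdc1, none of the passing genes in this paragraph passed without the second wild-type tumor array. None of 7 enteric neuron genes (median -2.55) or 5 blood genes (median 3.07) passed. Blood genes averaged 5.14 and 2.80 log2 units from the wild-type normal mean in deficient tumors, 0.50 and 0.54 in deficient normal colon, with 0.64 and -0.06 in wild-type tumors.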
